A study of Rattus with 6 samples.

Results

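The ubiquitin-specific peptidases (USPs) were measured as mRNA in H9C2, a myoblast line derived from the embryonic heart of the rat, after it had been given either a control plasmid or a plasmid for RBM25 overexpression. The members were all protein-coding genes of the count table whose symbol starts with Usp and a digit, leaving out the interferon-induced Usp18. This gave 46 genes of 20742 in the table. The gene left out, Usp18, was at 2.32, 1.81 and 1.91 CPM (counts scaled by library size) in controls and at 4.67, 2.68 and 7.15 CPM with RBM25. Its log2 fold change of 1.26 ± 0.41 (SE) was far above that of any tested member and did not pass (edgeR adjusted p = 0.346), and no statement on the family below covers it. One of them, Usp6nl, carries the name without the enzyme: it encodes a GTPase-activating protein for Rab proteins, and it is kept as a member because the rule takes it. Strand-marked sequencing of polyadenylated RNA gave 3 libraries for each group, control plasmid and RBM25 overexpression. No further allele, agent or time is given for either group, and nothing says that libraries of a group came from separate cultures. The p-values therefore rest on a spread between libraries that may be only technical.

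USPs form the largest family of deubiquitinases, proteases that cut ubiquitin from proteins or from other ubiquitin molecules. They use a catalytic cysteine, and most of them oppose particular ubiquitin ligases, so that a substrate is kept from the proteasome or a ubiquitin signal on a histone, a receptor or a repair protein is ended. Some work outside proteolysis: Usp39 has lost the catalytic residues and acts in the spliceosome's tri-snRNP, and Usp4 and Usp15 were found in human cells to act on tri-snRNP proteins. RBM25 itself is a splicing regulator that works with the U1 snRNP. The comparison asks whether the level of USP mRNAs differs when RBM25 is raised, and gene counts say nothing about how these mRNAs were spliced.

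Libraries held 25543849 to 33130256 counted reads, of which 44481 to 57534 fell on the USP genes. Rbm25 was at 49.2, 44.5 and 45.7 CPM in the control libraries and at 56.3, 55.9 and 60.1 CPM in the RBM25 libraries, so all RBM25 libraries were above all controls. The edgeR test gave a log2 fold change of 0.30 ± 0.047 (SE) with an adjusted p of 0.0011, and without control replicate 2 it did not pass (log2 fold change 0.28, adjusted p = 0.0842). Rbm25l1, an RBM25-like gene with which Rbm25 may share reads, had 1, 1 and 3 reads in the control libraries and 147, 114 and 105 in the RBM25 libraries (edgeR adjusted p = 7.27e-12). Of 15 markers of muscle cells, 13 had a row, and 11 of these could be tested. Myod1 (60.4 CPM in controls), Tnnt2 (106 CPM) and Casq2 (329 CPM) were the most abundant. Mef2c, Myog, Nkx2-5 and Gata4 were at 42.2, 21.4, 15.3 and 11.6 CPM. Acta1, Des and Actc1 were lower, at 9.41, 9.25 and 0.776 CPM. The adult heart genes Myh6 (0.284 CPM), Tnni3 (0.0509 CPM) and Myh7 (0.0131 CPM) were near 0. The defining endothelial markers Pecam1 and Cdh5 and the epithelial marker Epcam were near 0 as well (0.0239, 0.0131 and 0.0108 CPM), but Krt8 of the epithelial list was at 26.7 CPM and Vwf of the endothelial list at 0.593 CPM. Of the fibroblast list, Col1a1, Col3a1 and Thy1 were at 13006, 1049 and 535 CPM in controls, and Pdgfra was at 0.0355 CPM. Summed over the muscle list, controls held 597 to 614 CPM and RBM25 libraries 609 to 668 CPM. Casq2, the most abundant of them, was separate between the groups (324 to 334 against 350 to 355 CPM, adjusted p = 0.137). RBM25 replicate 3 stood apart from RBM25 replicates 1 and 2 for Tnnt2 (137 against 94.1 and 94.6 CPM) and Myog (25.6 against 14.6 and 14.9 CPM). The sums of the fibroblast (13790 to 15199 and 13896 to 14604 CPM), leukocyte (5.85 to 6.27 and 5.37 to 6.54 CPM), endothelial (0.627 to 0.864 and 0.637 to 0.884 CPM) and epithelial lists (25.0 to 28.7 and 25.7 to 29.9 CPM) also overlapped between the groups.

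Of the 46 members, 43 had enough reads for the test, over a wide range of levels. The deposited counts are labelled as those of expressed genes, which limits what presence among them shows. The RefSeq annotation of the later build GRCr8 holds 10 more protein-coding symbols that start with Usp and a digit. These have no row here, so the 46 members are not the complete family. The deposited FPKM (fragments scaled by gene length and library size) compares genes per length, and by it 9 members were at 10 FPKM or above in control cells, 29 were between 1 and 10, and 7 were below 1. A further member, Usp26, had no FPKM value. The summed level of the family in controls was 323 FPKM, of which the top 5 members made up 45.6%. The median over all tested genes was 5.43 FPKM.

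Usp5, which takes apart ubiquitin chains that are attached to no protein, was by far the most abundant, with 62.4 ± 0.340 FPKM in controls (SD, n = 3), or 19.3% of the family. Usp14, a proteasome-bound peptidase that trims chains from proteins about to be degraded, followed at 24.2 ± 0.825 FPKM, and Usp39 stood at 23.1 ± 0.409 FPKM. The ranges of Usp14 and Usp39 overlapped in the control libraries, so their order was not resolved. Usp47, which acts on the repair enzyme DNA polymerase beta, Usp10, known for its pairing with the stress granule protein G3BP1, and Usp1, which acts on the repair proteins FANCD2 and PCNA, came next at 19.5 ± 0.0777, 18.3 ± 0.295 and 15.01 ± 0.713 FPKM. Their control ranges did not touch each other. Usp7, which stabilises both Mdm2 and p53, was at 13.2 ± 0.0252 FPKM and overlapped with the endoplasmic reticulum enzyme Usp19 at 13.0 ± 0.362 FPKM. In the middle of the order, Usp25, Usp48, Usp36, Usp21 and Usp22 lay between 6.02 and 5.58 FPKM, and each overlapped with its neighbour.

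**Figure D1:**
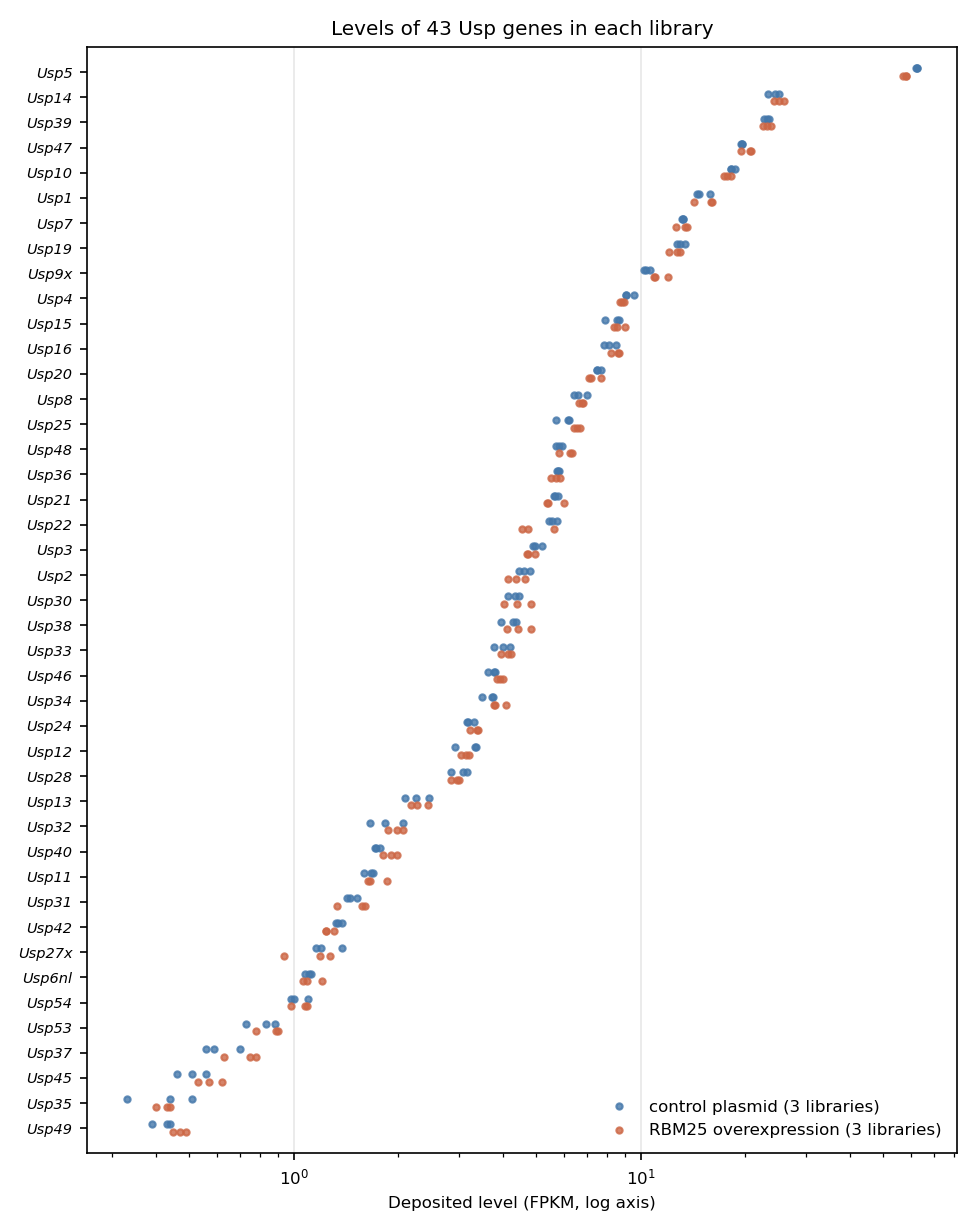
Deposited level of each of the 43 tested Usp genes in FPKM on a log axis, 1 point per library, in the order of the control mean; blue points are the 3 control libraries and orange points the 3 RBM25 libraries. Usp5 stands alone at the top at 62.4 FPKM in controls, and Usp49 is at the bottom at 0.420 FPKM.

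At the low end were Usp45, which acts on the repair nuclease subunit ERCC1, Usp35, and Usp49, which removes ubiquitin from histone H2B. Their control means were 0.51 ± 0.05, 0.427 ± 0.0907 and 0.420 ± 0.0265 FPKM, and neighbouring ranges overlapped. Usp6nl was at 1.10 ± 0.0208 FPKM. Another 3 members had too few reads for the test. Usp29 had 1, 8 and 6 reads in the control libraries and 13, 12 and 8 in the RBM25 libraries, so the raw counts touched at 8. Scaled by library size, the ratio of its summed reads was 2.03 (95% exact interval 1.07 to 4.02, which covers counting error only). Usp50 and Usp26 had no read in the controls, which allows up to 0.0351 CPM over that group, and 2 and 1 reads in the RBM25 libraries.

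Paralogs of the family were often present at unequal levels. Usp5 was 27.6-fold above its relative Usp13 in control FPKM and Usp16 was 16.0-fold above Usp45. By contrast, Usp4 and Usp15 were near parity, at 9.24 ± 0.274 and 8.34 ± 0.416 FPKM, and Usp12 was at 0.858 of Usp46, with which it shares the activator WDR48. None of the 13 pairs compared had a log2 ratio whose groups were separate, and the largest difference of a ratio between RBM25 and control libraries was 0.17, for Usp25 over Usp28 (log2 ratio 0.99 ± 0.14 in controls and 1.16 ± 0.064 with RBM25; SD, n = 3).

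No member passed the test with RBM25 overexpression. Of the 43 USP genes tested, 0 were called at an edgeR adjusted p under 0.05. DESeq2 called 0 of 44 members with an adjusted p, and limma-trend on FPKM values 0 of 41. Over all 12882 tested genes 52 were called, or 0.404%, so 0 of 43 is near the background and is no result about the family. Leaving out control replicate 2, control replicate 3 or RBM25 replicate 3 changed the all-gene count to 5, 21 and 352. At an unadjusted p under 0.05 there were 3 higher members, against 6.4% of all tested genes, and 1 lower member, against 4.78%. With DESeq2, 2 of 46 members were under that unadjusted threshold, against 4.17% of all genes, and with limma-trend 3 of 41, against 9.67%. In such bulk samples fewer cells that express a gene and less of its mRNA per cell cannot be told apart.

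The differences were small, and most had narrow intervals. Log2 fold changes of the members ran from -0.18 to 0.21, with 28 above 0 and 15 below, a share above 0 of 65.1% against 48.8% of all tested genes. Their median was 0.033, and that of all tested genes was -0.0021. The median moved to 0.010 without control replicate 2 and to 0.062 without control replicate 1. For 35 of the 43 members the 95% interval of the log2 fold change lay within 1.2-fold in either direction, and for all 43 it lay within 1.5-fold. These intervals are not adjusted for the number of genes. They rest on a spread between libraries that may be only technical, so they need not bound a difference across separate cultures. The 8 with wider intervals were Usp11, Usp22, Usp27x, Usp35, Usp37, Usp45, Usp49 and Usp53.

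**Figure D2:**
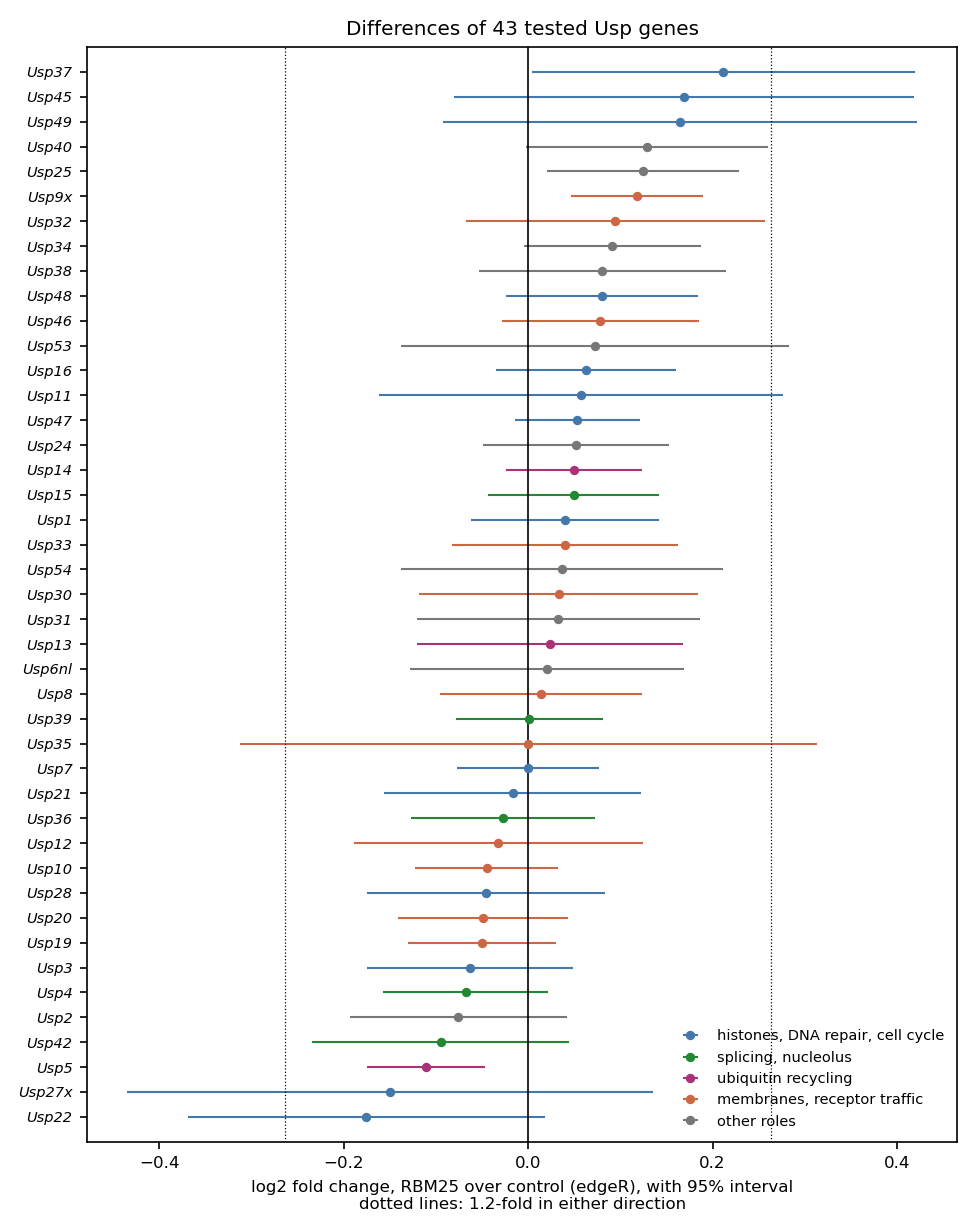
Log2 fold change of RBM25 over control for each of the 43 tested Usp genes (edgeR), sorted by size, with its 95% interval as a bar; colours give the role group and dotted lines mark 1.2-fold. The values run from -0.18 for Usp22 to 0.21 for Usp37, and most intervals cross 0.

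Among the enzymes that recycle ubiquitin, Usp5 came closest to a fall. It was at 217, 216 and 218 CPM in the control libraries and at 203, 198 and 201 CPM in the RBM25 libraries. All RBM25 libraries were thus below all controls, and the groups lay far apart against the spread within them. The log2 fold change was -0.11 ± 0.031 (SE), a difference of -7.4%, and it did not pass over all genes (edgeR adjusted p = 0.116). Without RBM25 replicate 3 the adjusted p was 0.0499, just under the threshold, with a log2 fold change of -0.11. Usp5 overlaps Cdca3 in the RefSeq annotation of the later build GRCr8, and the level of Cdca3, which overlapped between the groups, averaged 142 ± 2.42 CPM in controls and 137 ± 12.5 CPM with RBM25. Usp14 was at 109, 112 and 105 CPM in controls and at 113, 109 and 115 CPM with RBM25, and its groups overlapped (log2 fold change 0.050 ± 0.036, adjusted p = 0.639). Usp13, which cleaves chains like Usp5, also overlapped, with a log2 fold change of 0.024.

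For the members linked to splicing and the nucleolus, 0 of 5 were called, against 0.404% of all tested genes. A positive log2 fold change was found for 2 and a negative for 3, and the median was -0.027. Usp39, the spliceosome member, was at 68.6, 67.8 and 66.1 CPM in controls and at 69.7, 65.9 and 67.0 CPM with RBM25. These values were interleaved, and the log2 fold change of 0.0013 ± 0.039 had a 95% interval from -0.078 to 0.081 (edgeR adjusted p = 0.994). Usp4 was at 53.1, 50.5 and 50.4 CPM in controls and at 49.8, 48.5 and 48.6 CPM with RBM25; its groups did not overlap, but the difference did not pass (log2 fold change -0.068 ± 0.043, adjusted p = 0.591). Usp15, its close relative, went the other way without passing (0.049 ± 0.045, adjusted p = 0.738). Reads of Usp15 are less certain, because RefSeq lists the pseudogenes Usp15-ps1 and Usp15-ps2.

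Of the 14 tested members that act on histones, in DNA repair or in the cell cycle, 0 were called, against 0.404% of all tested genes. Their log2 fold changes were above 0 for 8 and below for 6, with a median of 0.047. Usp37, which stabilises cyclin A, had the largest log2 fold change of the family, 0.21 ± 0.10 (SE; edgeR adjusted p = 0.431). It stood at 7.97, 8.36 and 9.89 CPM in controls and 11.0, 10.5 and 8.80 CPM with RBM25. RBM25 replicate 3 lay within the range of the controls, and without it the log2 fold change was 0.30 (adjusted p = 0.0905). Control replicate 3 was the highest control, and without it the log2 fold change was 0.32 (edgeR adjusted p = 0.373). In RefSeq, Usp37 overlaps Cnot9, among other genes. Cnot9 averaged 58.5 ± 2.22 CPM in controls and 60.5 ± 3.14 CPM with RBM25, and whether reads were shared was not tested. Usp22, the histone deubiquitinase of the SAGA coactivator, had the lowest value of the family, -0.18 ± 0.094 (adjusted p = 0.502). It was at 9.50, 9.33 and 9.76 CPM in controls and at 7.82, 8.09 and 9.52 CPM with RBM25. Here too RBM25 replicate 3 lay within the control range while the other RBM25 libraries lay below it, and without it the log2 fold change was -0.26 (adjusted p = 0.166). Usp27x, a relative of Usp22 that can use the same SAGA-derived cofactors, was also below 0 with a wide interval (-0.15, 95% interval -0.44 to 0.14), and a pseudogene of it is listed in RefSeq. The length that FPKM implies for Usp22 was 1.71 kilobases, the shortest of the tested members. Whether its gene model is complete was not tested, and its level per length, its rank and the reads behind its difference rest on that model.

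Usp45 and Usp49 were among the 3 largest positive values of the family, at 0.17 ± 0.12 and 0.17 ± 0.12 (SE; edgeR adjusted p = 0.639 and 0.661). Usp49 was at 4.40, 4.25 and 3.85 CPM in controls and at 4.52, 4.64 and 4.83 CPM with RBM25, so its groups did not overlap, whereas those of Usp45 did. The Usp49 gene overlaps Med20 in RefSeq, which averaged 34.4 ± 1.33 CPM in controls and 33.3 ± 0.297 CPM with RBM25. Sharing of reads was not tested. Usp7 was at 74.7, 74.6 and 74.2 CPM in controls and at 71.8, 75.8 and 76.0 CPM with RBM25, and the control values lay inside the range of the RBM25 values. Its group means were 74.5 and 74.5 CPM, with a 95% interval of the log2 fold change from -0.077 to 0.077. Usp47 (125 ± 0.301 and 130 ± 3.94 CPM) and Usp1 (57.5 ± 2.73 and 59.0 ± 4.25 CPM) had log2 fold changes of 0.053 and 0.040 and did not pass (adjusted p = 0.58 and 0.811).

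Among 11 members of endosomes, organelle membranes and receptor traffic, 0 were called, against 0.404% of all tested genes. Their log2 fold changes were above 0 for 7 and below for 4, and the median was 0.014. Usp9x, a very large X-linked enzyme whose substrates include the survival protein MCL1, came nearest to a call. It was at 150, 152 and 156 CPM in controls and at 162, 161 and 174 CPM with RBM25. Every RBM25 library was above every control, and replicate 3 was the highest (log2 fold change 0.12 ± 0.035 SE, or 8.53%; edgeR adjusted p = 0.136). Without RBM25 replicate 3 the log2 fold change was 0.081 (adjusted p = 0.209). Usp8, which deubiquitinates cargo and sorting proteins on endosomes, was at 29.6, 30.5 and 32.2 CPM in controls and at 31.3, 30.8 and 31.2 CPM with RBM25, all within the control range. Usp30, which sits in the outer mitochondrial membrane and opposes Parkin in mitophagy, was at 15.7, 16.9 and 16.4 CPM in controls and at 16.8, 15.35 and 18.2 CPM with RBM25 (0.033 ± 0.073, adjusted p = 0.908). Its RBM25 libraries spread on both sides of the controls. Usp10 did not overlap between the groups in CPM (71.1 ± 1.23 and 68.9 ± 1.32 CPM), with a log2 fold change of -0.045 and an adjusted p of 0.701. In FPKM its groups did overlap. Usp35 had the widest interval of this group, -0.31 to 0.31.

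**Figure D3:**
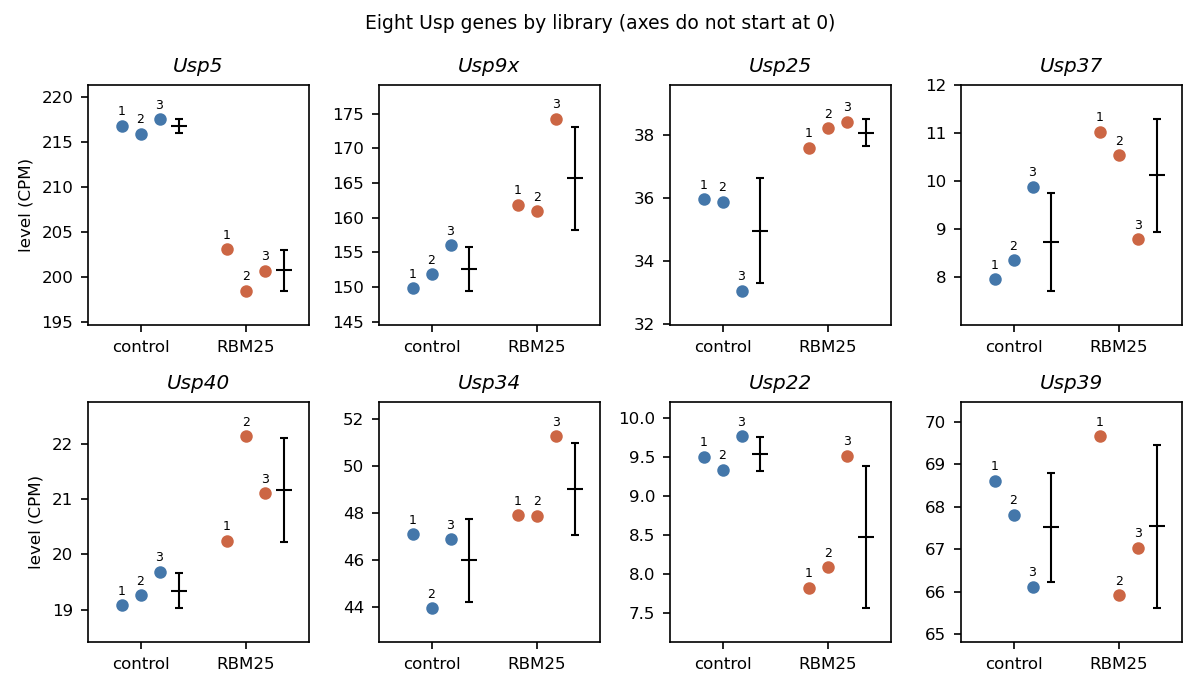
Level in CPM of 8 Usp genes in each library, numbered by replicate, with the mean and SD of each group beside the points; axes do not start at 0. Usp5, Usp9x, Usp25, Usp40 and Usp34 show separate groups, Usp37 and Usp22 overlap through RBM25 replicate 3 or control replicate 3, and Usp39 is interleaved.

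The remaining members with other roles had 10 tested genes, of which 0 were called, against 0.404% of all tested genes. A positive log2 fold change was found for 9, against 48.8% of all tested genes, and the median was 0.062. Usp25, which acts in immune receptor signalling and has a known muscle isoform, was at 35.96, 35.9 and 33.0 CPM in controls and at 37.6, 38.2 and 38.4 CPM with RBM25. The groups were separate, with control replicate 3 well below the other controls (log2 fold change 0.12 ± 0.051 SE; edgeR adjusted p = 0.333). Usp40 was at 19.1, 19.3 and 19.7 CPM in controls and at 20.2, 22.1 and 21.1 CPM with RBM25, again without overlap (0.13 ± 0.064, adjusted p = 0.46). Usp34, which acts on axin in Wnt signalling, was at 47.1, 44.0 and 46.9 CPM in controls and at 47.9, 47.9 and 51.3 CPM with RBM25, separate by a narrow gap (0.091 ± 0.047, adjusted p = 0.473). In RefSeq it overlaps Ahsa2, which averaged 20.6 ± 0.733 CPM in controls and 21.9 ± 0.999 CPM with RBM25 (log2 fold change 0.091). Sharing of reads was not tested. Usp6nl, the Rab regulator, was at 15.2, 14.8 and 15.1 CPM in controls and at 14.6, 14.9 and 16.3 CPM with RBM25, with overlap and a log2 fold change of 0.020.

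Counted over the family, 7 tested members were higher in all RBM25 libraries than in any control, against 8.31% of all tested genes, and 4 were lower in all, against 7.94%. The 7 were Usp9x, Usp25, Usp34, Usp40, Usp46, Usp47 and Usp49, and the 4 were Usp4, Usp5, Usp10 and Usp42, all by CPM. In FPKM the groups of Usp10 and Usp47 overlapped. For Usp10, RBM25 replicate 3 was at 18.21 FPKM, above control replicates 1 and 3 at 18.14 and 18.18 FPKM. For Usp47, RBM25 replicate 1 was at 19.49 FPKM, below control replicates 1 and 3 at 19.56 and 19.6 FPKM. RBM25 replicate 3 differed most from the other libraries of its group, the library in which Tnnt2 and Myog were also high. Without that library the log2 fold changes of Usp37, Usp22 and Usp9x were 0.30, -0.26 and 0.081, against 0.21, -0.18 and 0.12 with all libraries. Why RBM25 replicate 3 differed was not tested. For the members, the chi-square of its counts was 2.69 and 2.51 per degree of freedom against replicates 1 and 2, and it was 1.68 between those replicates and 1.34 to 1.53 between the controls. Without RBM25 replicate 3, 8 of 44 tested members were at an unadjusted edgeR p under 0.05, against 14.9% of all tested genes. Among the 8 was Usp29, which the main fit did not test and which had 48 reads over all libraries (log2 fold change 1.12, unadjusted p = 0.0499). In that fit 1 member was called, Usp5, against 2.69% of all tested genes.

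**Figure D4:**
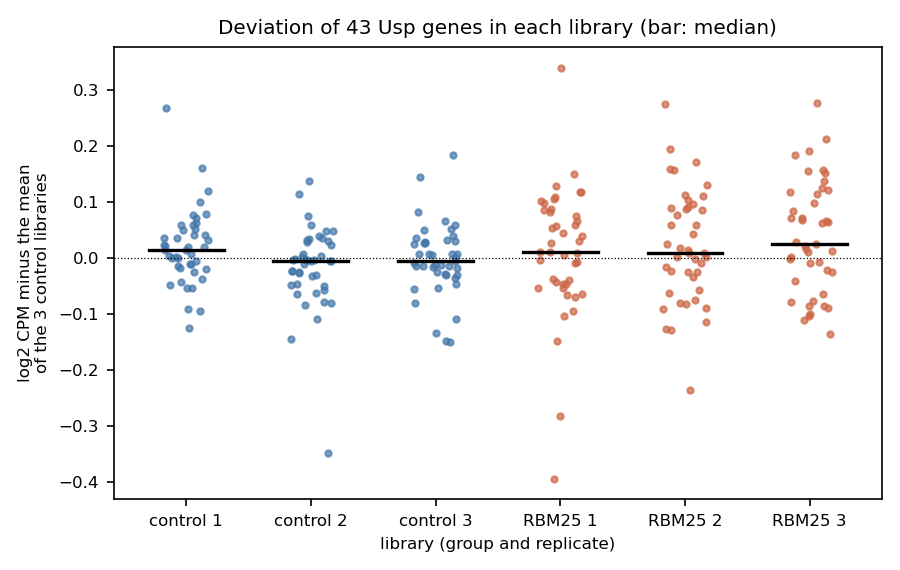
Log2 CPM of each of the 43 tested Usp genes minus its mean over the 3 control libraries, 1 point per gene, by library; bars are medians. The medians lie between -0.0055 and 0.025, with control 1 above RBM25 1 and 2, so that the libraries of the groups overlap.

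As a whole the family took a similar share of the reads in both groups. USP genes made up 0.174%, 0.172% and 0.173% of the reads in the control libraries and 0.174%, 0.174% and 0.179% in the RBM25 libraries. The share overlapped between the groups, with RBM25 replicate 3 the highest. Their CPM summed to 1736 ± 9.98 in the control group and to 1752 ± 14.4 in the RBM25 group (SD, n = 3). The median deviation of the members from the control mean was 0.014, -0.0055 and -0.0052 in the control libraries and 0.010, 0.0092 and 0.025 in the RBM25 libraries on the log2 scale, so control replicate 1 lay above the RBM25 replicates 1 and 2.

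Other genes of the ubiquitin system were counted against the same background, with 0.404% of all tested genes called and 6.4% higher and 4.78% lower at an unadjusted edgeR p under 0.05. Of 35 tested deubiquitinases outside the Usp symbols, 0 were called by edgeR or DESeq2, with 1 higher and 2 lower at the unadjusted threshold, 16 above 0 and a median of -0.011. Uchl5, another proteasome-bound deubiquitinase, had the smallest p of that list (27.5 ± 0.211 CPM in controls, 30.0 ± 1.18 CPM with RBM25, adjusted p = 0.364 by edgeR). Of 35 ubiquitin, E1 and E2 genes, 0 were called by either tool, with 2 higher and 1 lower at the unadjusted threshold (6.4% and 4.78% of all tested genes) and a median of -0.0024. Ube2v2, a partner of the E2 enzyme Ube2n in making lysine-linked signalling chains, was at 42.6, 40.8 and 42.7 CPM in controls and at 46.7, 45.8 and 48.5 CPM with RBM25, without overlap (log2 fold change 0.16 ± 0.046, adjusted p = 0.123).

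Of 27 tested partners and cofactors of USPs, 0 were called by edgeR or DESeq2, with 4 higher and 1 lower at the unadjusted threshold (6.4% and 4.78% of all tested genes), 14 above 0 and a median of 0.0015. Mdm4, an inhibitor of p53 whose stability Usp7 and Usp2 are known to affect in human cells, was at 25.9, 26.3 and 28.7 CPM in controls and at 30.4, 30.8 and 33.9 CPM with RBM25. Its groups did not overlap, and it came closest to a call among all the genes of these lists (log2 fold change 0.23 ± 0.059 SE; edgeR adjusted p = 0.0799). Without RBM25 replicate 3 another partner, Eny2, was called (log2 fold change 0.13, edgeR adjusted p = 0.0332), against 2.69% of all tested genes in that fit. Eny2 is a small SAGA subunit that activates Usp22, and it was picked for mention because of this value. With all libraries its groups overlapped and it did not pass (log2 fold change 0.091, edgeR adjusted p = 0.364).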

How the data were processed

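The deposited table of raw counts holds whole reads for each gene. The deposited FPKM table gives the authors' values to 2 decimals. The submitters' processing notes list DESeq2, HISAT2 and, as the genome, mRatBN7.2. The kit marks strand, per the labels' protocols. Not given in the sources used here: versions, the counting program, the annotation, whether counting used strand, and the gene lengths behind FPKM. Overlapping genes and near-identical copies are therefore uncertain: in the RefSeq annotation of GRCr8, used for names only, 21 of the 46 members overlap another gene and 3 have a listed copy or pseudogene.

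All genes went into 1 edgeR fit (version 4.0.16, R 4.3.3): filterByExpr with a minimum count of 10 (12882 genes kept), TMM factors of 0.996 to 1.01, and a robust quasi-likelihood F-test on group, with Benjamini-Hochberg adjustment over all tested genes and a threshold of 0.05. SE is the log2 fold change divided by the square root of F. CPM were scaled by the TMM factors. Alternatives used DESeq2 1.42.0 and limma 3.58.1 (limma-trend on log2 of FPKM plus 0.1 or 1). The tests were tried on simulated counts.

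The members, lists and roles were chosen with earlier results of these data known. Named members (22) are those with the 6 smallest p, the 6 highest and 3 lowest tested control FPKM, the 3 largest log2 fold changes in each direction, and 12 picked by role; each partner list adds its member with the smallest p. Further members are named from complete counts, from fixed pairs or as neighbours in the order of levels. No replicate pair agreed within sampling noise (chi-square over all genes 3.22 to 6.23 per degree of freedom), so each library counted once.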

Additional observations from a re-analysis of the deposited data

How the results depend on the processing

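The count of called USP genes was 0 under RLE or upper-quartile factors, DESeq2, no filter on low counts, a mean CPM of at least 1 and FPKM values. Leaving out 1 library gave 0 to 1, the 1 being Usp5 without RBM25 replicate 3. The count of called genes over the whole table was 205 with no filter on low counts, 5 to 352 when 1 library was left out, and 3, 2 and 6 on FPKM values (pseudocount 0.1, pseudocount 1, and 0.1 with no filter). Of 27 partners, 1 was called with no filter (Mdm4), beside 205 of all 20742 genes. Leaving out 1 library gave 0 to 1 partners, the 1 being Eny2 without RBM25 replicate 3, where 2.69% of all tested genes were called. The members' median log2 fold change ranged from 0.010 to 0.062 when 1 library was left out and was 0.020 on FPKM with a pseudocount of 1. For Rbm25 the log2 fold change was 0.27 to 0.35 without 1 library, and 0.30, 0.28 and 0.30 on FPKM values, where it did not pass (limma-trend adjusted p = 0.211, 0.239 and 0.381).

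Of the 43 members, 30 kept their sign in all 15 alternatives, and Usp49 did in the 13 that tested it. Named members whose sign changed were near 0 in the main fit. Without 1 library, Usp35 was the least stable of them and ranged from -0.16 to 0.13. Usp30 ranged from -0.025 to 0.096, Usp39 from -0.020 to 0.021 and Usp6nl from -0.028 to 0.056. Usp7 ranged from -0.014 to 0.029 and Usp8 from -0.0094 to 0.051. Usp35 was -0.0022 with DESeq2. Usp7 was 0.0063 with upper-quartile factors, 0.0026 with no filter, 0.0014 with a mean CPM of at least 1, 3.00e-04 with the replicate block, and 4.32e-04, 4.44e-04 and 4.32e-04 on FPKM. The causes were not tested.

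Replicate numbers did not pair the libraries: deviations of same-numbered libraries correlated at 0.054, -0.067 and -0.0059. A fit with a replicate block called 436 of all 12882 tested genes. Beside that background it called 2 of 43 USP genes (Usp5, log2 fold change -0.11, edgeR adjusted p = 0.0118, and Usp9x, 0.12, adjusted p = 0.00515). It also called 1 of 35 ubiquitin, E1 and E2 genes (Ube2v2) and 2 of 27 partners (Mdm4 and Prpf4b). The interval of Usp35, with 625 reads in all, spans -0.31 to 0.31. Its control libraries held 107, 78 and 114 reads, and the parts of depth and of spread between libraries in this interval were not tested.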

Other observations

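The length that the deposited values imply, CPM before TMM scaling divided by FPKM, differed widely among members. It was 14.7 kilobases for Usp9x and 2.92 for Usp39, the next shortest tested member after Usp22. Levels per length, and so the order of the family, rest on these lengths, for which the sources used here give no definition.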
